A study of Arabidopsis thaliana with 28 samples.

Results

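The comparison set 2 arrays of Arabidopsis thaliana plants overexpressing MYB44 (AT5G67300) against the 2 arrays of Col-0 wild type (WT) that the labels assign to the transgenic plants as their control, 4 of the 28 arrays in the series. Arrays were chosen by their source names, since the titles of the overexpressor arrays read MYB4. All 4 came from the entire aerial part of seedlings grown for 12 days at 22 °C on sterile agar without sucrose, in constant light of about 100 µmol m-2 s-1. The other arrays held 10 further overexpressing lines, among them the related factor MYB73, and a WT experiment at 22 °C and after 24 h at 4 °C. The plants at 4 °C had light of 30 µmol m-2 s-1. The promoter of the transgene and the number of independent transgenic lines are not given in the sources used here. The labels call replicates biological and say no more, so p-values measure the spread between these arrays.

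MYB44 is a transcription factor of the R2R3-MYB family and belongs to the same subgroup as MYB70, MYB73 and MYB77. In Arabidopsis it is known for its part in abscisic acid (ABA) signalling, where overexpression was linked to stomatal closure, drought tolerance and lower expression of protein phosphatases 2C. It is also known in salicylate and jasmonate defence signalling. None of the 4 genes of this subgroup, of 9 clade A protein phosphatases 2C or of 14 ABA receptors was paired with a probe set in the annotation used here, so neither the transgene nor those genes could be followed.

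Levels are deposited log2 signals, on which a difference of 1 is a 2-fold change and the lowest value is 2.13. The array medians were 5.46 and 5.39 in MYB44, 5.42 and 5.43 in the control and 5.33 to 5.48 in 9 of the other lines. In CZF1 and in the WT arrays of the cold experiment they were 5.765 to 5.84, so lines were compared over the 9 lines of like median. The root mean square SD between replicates was 0.309 in MYB44 and 0.181 in the control. The 3' to 5' signal difference of the GAPDH control probes was 1.43 and 1.31 in MYB44, 0.75 and 0.91 in the control and 0.86 to 2.04 in the other lines. For ubiquitin it was 1.51 and 1.43 against 1.27 and 1.2, and for actin 5.29 and 5.72 against 5.42 and 5.40, where the groups overlapped. The part of these differences in the results was not tested. The leaf markers RCA, LHCB4.2 and LHCB4.3, genes of Rubisco activation and light harvesting, were high. RCA stood at 14.09 and 14.04 in MYB44 and at 13.97 and 14.24 in the control. PYK10, a beta-glucosidase known from roots and hypocotyls, was also high, at 12.19 and 11.53 in MYB44 and at 11.91 and 12.22 in the control.

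In the MYB44 plants 3 of 15 tested CC-type glutaredoxin genes rose. Lower were 6 of 10 lipid transfer protein genes, 6 of 37 class III peroxidase genes and single genes of wall loosening and pectin breakdown such as EXPB1 and AT5G14650. In limma, 140 of 15916 probe sets rose and 129 fell at an adjusted p under 0.05, which is 1.69% of those tested (0.88% higher and 0.811% lower). The median difference over all tested probe sets was 0.05. Among the probe sets past the threshold, 200 differed at least 2-fold, 90 upwards and 110 downwards, and 141 were paired with 1 gene. In all 269 both MYB44 arrays lay on the same side of both control arrays.

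The counts rested on the spread pooled over all 14 groups and on single arrays. A limma fit of the 4 arrays alone called 0 probe sets (lowest adjusted p 0.13, 3192 at an unadjusted p under 0.05). The full fit had 2318 at that unadjusted level. Without control replicate 1, control replicate 2 or MYB44 replicate 2 the count was 36, 33 or 78, and without the arrays of CRF3, another line, it was 979. Of the 24 genes with the largest changes, 5 kept their call whichever of the 4 arrays was left out. They were AT4G15680, AT2G30540, AT5G37690, EXPB1 and AT3G45710.

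**Figure D1:**
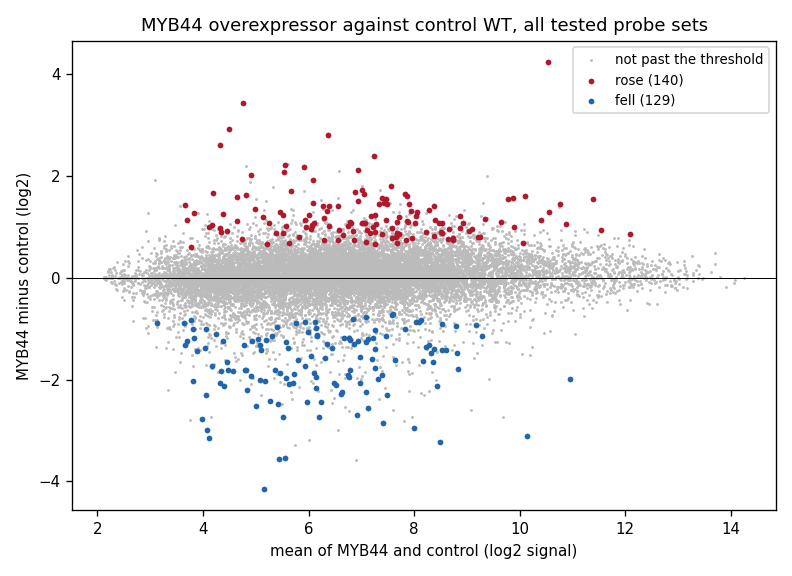
MYB44 minus control (log2) against the mean of both groups (log2 signal) for the 15916 tested probe sets, each point 1 probe set. Red points are the 140 that rose, blue the 129 that fell, and the largest of both lie beyond 4 on the log2 scale.

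The largest difference belonged to a probe set without a gene name here, 246987_at. It read 13.04 and 12.26 in MYB44 and 8.35 and 8.47 in the control, a rise of 4.24 ± 0.25 (SE, n = 2 per group), or 18.9-fold (limma adjusted p 2.13e-08). It stood 4.56 above the 9 lines and 4.89 above MYB73 (limma adjusted p 3.27e-11 and 1.72e-09). Which transcript it measures is not known here. The other unnamed probe set chosen among the rises, 245275_at, read 7.11 and 5.84 against 3.04 and 3.06, and its call was lost without any 1 of the 4 arrays.

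CC-type glutaredoxins are small plant-specific redox proteins that interact with TGA transcription factors, and several respond to nitrate and cytokinin. Of 21 listed genes 15 were tested. In limma 3 of these rose and 0 fell, against 0.88% and 0.811% of all tested probe sets. At limma's unadjusted p under 0.05 the counts were 6 and 0, beside 2318 of all 15916 probe sets in either direction. The list's median difference was 0.46, against 0.05 for all. Both MYB44 arrays lay above both control arrays in 9 of the 15, against 30.5% of all tested probe sets.

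AT4G15680 read 8.11 and 7.42 in MYB44 and 5.04 and 4.89 in the control. It rose by 2.80 ± 0.28 (SE), or 6.96-fold (limma adjusted p 6.6e-05). The groups did not overlap, and MYB44 replicate 1 was the higher of the pair. AT2G30540 read 8.47 and 8.38 against 6.14 and 5.94 and rose by 2.38 ± 0.35 (limma adjusted p 0.00192). AT2G47880 read 8.08 and 8.28 against 6.30 and 6.93 and rose by 1.56 ± 0.38 (limma adjusted p 0.04). The call of AT2G47880 did not survive the removal of any single array. All 3 genes, called with the same MYB44 arrays, stood higher in MYB44 than in any of the 9 lines. The mean over the 15 tested glutaredoxins was 6.11 and 6.03 in MYB44 and 5.36 and 5.39 in the control, and ZAT10 matched MYB44 with 6.18 and 5.91.

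The gene AT4G15680 lies in a run of neighbouring glutaredoxin loci of very similar sequence. Its neighbours AT4G15690, AT4G15700 and AT4G15660 differed by 0.93, 0.83 and 0.66 without passing the threshold (limma adjusted p 0.228, 0.0729 and 0.372). Probe sets of such close copies may share signal, so the values of single members are uncertain. In the direct comparison with MYB73, AT4G15680 was higher by 2.41 and AT2G30540 by 2.14 (limma adjusted p 0.000656 and 0.00567). That is 2 of 15 against 0.591% of all tested probe sets, and it rests on the same MYB44 arrays. AT2G47880 was 1.33 higher than in MYB73 and did not pass (limma adjusted p 0.0909). GRX480, a salicylate-responsive member of the family, was low in all 4 arrays, from 3.22 to 3.38.

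Other rises fell to genes of several kinds. AT2G43590, a chitinase family gene, read 7.47 and 6.52 against 4.61 and 5.04 (2.17 ± 0.39, limma adjusted p 0.00853). It alone passed of 3 tested salicylate and defence genes, against 0.88% of all tested probe sets called higher. Its level in MYB44 was exceeded by 4 of the 9 lines, and it was -0.24 from the WT of the cold experiment at 22 °C. The arrays of that WT had the higher medians given above, and the part of this in differences from it was not tested. Another chitinase family gene, AT2G43610, fell by 2.24 (limma adjusted p 0.0497), a call lost without any 1 of the 4 arrays, and it was 0.41 above that other WT. AT1G52100, a jacalin-like lectin gene, read 7.55 and 5.60 against 4.65 and 4.35, so the 2 MYB44 arrays differed by more than MYB44 replicate 2 did from the control. AT2G39920, of the HAD acid phosphatase family, rose by 2.02 (-0.21 against that other WT), and AT1G56300, a DnaJ chaperone gene, by 1.71. AT4G30660, which encodes a small membrane protein of the RCI2 type, rose by 1.60. The remaining members of the 12 were AT1G20070, AT1G48330, AT3G01490 (a protein kinase gene) and AT2G41990, with rises of 1.58 to 1.79.

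Regulatory genes were among the smaller rises, named after their values were seen. XERICO, a RING-H2 gene whose overexpression raises ABA in Arabidopsis, read 7.80 and 7.82 against 6.86 and 6.65 (1.05 ± 0.22, limma adjusted p 0.0212). Leaving out any 1 of the 4 arrays ended that call. AT4G01460, a bHLH factor gene, read 7.26 and 6.93 against 5.69 and 5.68 (1.41 ± 0.20, limma adjusted p 0.00173), and AT4G14270 and AT5G24490 rose by 1.45 and 1.3. These 3 kept their calls whichever of the 4 arrays was left out.

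The cytokinin-response gene ARR15, a type-A response regulator, rose by 1.24 ± 0.30 (limma adjusted p 0.0408), while RR16 differed by 0.91 and did not pass (limma adjusted p 0.293). CML30, a calmodulin-like gene, rose by 1.47. CCL, whose transcript is known for its circadian instability, rose by 1.54 ± 0.28 from a control level of 10.55 and 10.68 (limma adjusted p 0.00917). It alone passed of 4 tested clock genes, against 0.88% of all tested probe sets called higher. YAB5, a leaf polarity factor gene, rose by 1.08, and the starch genes PWD and AT5G39790 by 0.97 and 1.3. YAB5, PWD and AT5G39790 were on the other side of the WT of the cold experiment at 22 °C, at -0.07, -0.035 and -0.51 from it. The calls of ARR15, CML30 and AT5G39790 were lost without any 1 of the 4 arrays, and those of CCL, YAB5 and PWD without control replicate 1, control replicate 2 or MYB44 replicate 2.

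**Figure D2:**
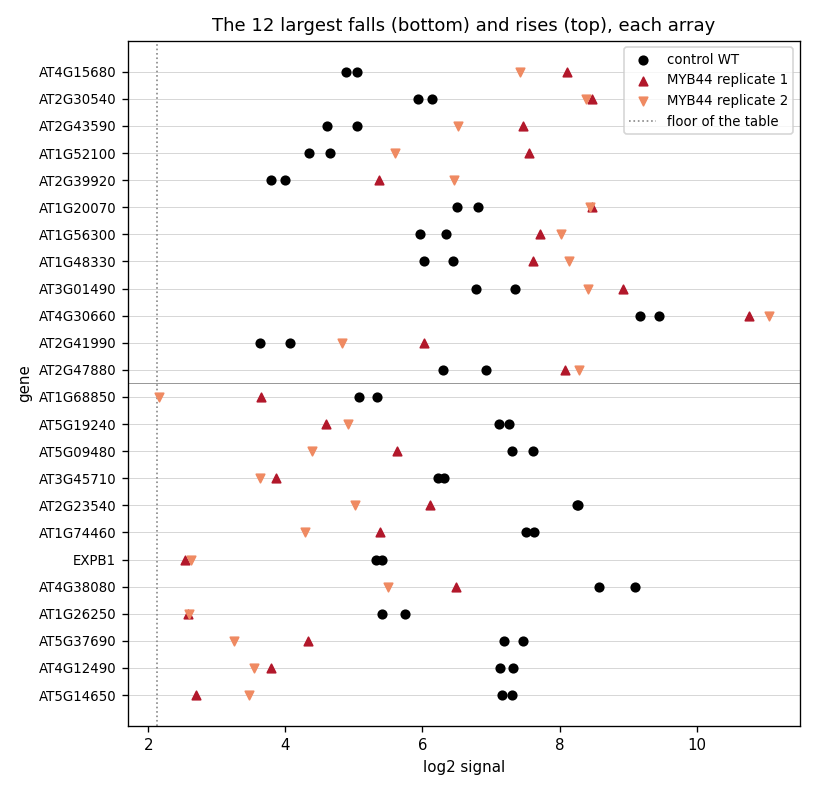
Log2 signal in each of the 4 arrays for the 12 largest rises (top) and the 12 largest falls (bottom) among probe sets of 1 gene, with the lowest value of the table as a dotted line. No control point lies between the MYB44 points of any gene, and several fallen genes approach 2.13 in MYB44.

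The 12 largest falls, of 2.31 to 4.15, exceeded most of the 12 largest rises, of 1.56 to 2.80. AT5G14650, a polygalacturonase gene of pectin breakdown, read 2.69 and 3.47 in MYB44 and 7.16 and 7.30 in the control. It fell by 4.15 ± 0.90 (SE), or 17.8-fold (limma adjusted p 0.0239). MYB44 lay near the lowest value of the table, so this fold depends on that floor, and the call was lost without any 1 of the 4 arrays. AT1G26250, a proline-rich extensin-like gene, read 2.58 and 2.59 against 5.41 and 5.74 and fell by 2.99 (limma adjusted p 0.00358). EXPB1, a beta-expansin of wall loosening, read 2.54 and 2.63 against 5.33 and 5.41 and fell by 2.79 ± 0.43 (limma adjusted p 0.00291).

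Of 15 tested expansins, EXPB1 alone passed, against 1.69% of all tested probe sets. Both MYB44 arrays were nevertheless below both control arrays in 13 of the 15, against 20% of all tested probe sets, with a median difference of -0.65. EXPB3 read 7.82 and 6.26 against 9.32 and 9.35, a difference of -2.29 that did not pass (limma adjusted p 0.113). PMEPCRF, a pectin methylesterase, read 5.56 and 6.19 against 7.55 and 7.81 and fell by 1.80 ± 0.20 (limma adjusted p 0.000197). It kept its call whichever array was left out, and differed by -1.66 from the 9 lines and by -1.67 from MYB73 (limma adjusted p 7.3e-06 and 0.000833). AT4G38080 and AT5G09480, both hydroxyproline-rich glycoprotein genes, fell by 2.84 and 2.45.

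AT5G37690, a GDSL esterase gene, read 4.33 and 3.25 against 7.19 and 7.47 and fell by 3.54 ± 0.46, or 11.6-fold (limma adjusted p 0.000461). AT1G74460 and AT2G23540, also GDSL esterase genes, fell by 2.74 and 2.71 (limma adjusted p 0.00692 and 0.00917), with MYB44 replicate 2 lower than replicate 1 by more than 1 on the log2 scale in each. AT3G45710, of the NPF2 transporter family, read 3.87 and 3.63 against 6.32 and 6.23 and fell by 2.52 ± 0.32 (limma adjusted p 0.000461). Against the unchilled WT of the cold experiment it differed by -0.7 and did not pass (limma adjusted p 0.128). The unnamed probe set 252863_at read 6.61 and 7.13 against 10.06 and 10.15 (-3.23 ± 0.48, limma adjusted p 0.00221) and kept its call whichever array was left out. Another, 247871_at, read 2.13 and 2.95 against 5.53 and 5.85 (limma adjusted p 0.00917), and its call was lost without MYB44 replicate 1 or either control array. AT5G19240 and its neighbour AT5G19250, genes for GPI-anchored glycoproteins, fell by 2.44 and 1.43.

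Lipid transfer proteins carry lipids outside the cell, for wall, cuticle and suberin layers and in defence. Of 44 listed genes, 16 were named and 10 tested. In limma 6 of the 10 fell and 0 rose, against 0.811% and 0.88% of all tested probe sets, with a median difference of -1.81 against 0.05 for all. At limma's unadjusted p under 0.05 the counts were 8 and 0, beside 2318 of all 15916 probe sets in either direction. The list was added after values had been seen and carries no test of its own. AT4G12490, of the EARLI1 type, read 3.79 and 3.54 against 7.13 and 7.32 and fell by 3.56 ± 0.88 (limma adjusted p 0.0461), a call lost without any 1 of the 4 arrays. AT3G22620 read 6.77 and 5.97 against 8.08 and 8.20 and fell by 1.77 ± 0.30 (limma adjusted p 0.00614). AT3G58550, AT2G48130, AT2G18370 and AT4G22460 fell by 1.26 to 2.24, and MYB44 replicate 2 was the lower array in each. AT4G22460 was 0.105 above the WT of the cold experiment at 22 °C. Without control replicate 1, control replicate 2 or MYB44 replicate 2 the count was 0, and without the 6 arrays of CZF1 and the cold experiment it was 2.

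Class III peroxidases are secreted enzymes that cross-link wall polymers and lignin or produce reactive oxygen. Of 73 listed genes 55 were named and 37 tested, and in limma 6 fell and 0 rose, against 0.811% and 0.88% of all tested probe sets. At limma's unadjusted p under 0.05 the counts were 19 and 0, beside 2318 of all 15916 probe sets in either direction. The median difference was -1.06. This list too was added after values had been seen. Both MYB44 arrays lay below both control arrays in 24 of the 37, against 20% of all tested probe sets. AT1G68850 read 3.65 and 2.15 against 5.07 and 5.34 (-2.31 ± 0.54, limma adjusted p 0.0347). AT4G30170 read 6.84 and 5.80 against 8.05 and 8.57 (-1.99 ± 0.35, limma adjusted p 0.00737). AT4G26010, AT4G11290, AT3G21770 and AT2G37130 fell by 1.54 to 2.29, and AT2G37130 was 0.045 above the WT of the cold experiment at 22 °C.

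Without MYB44 replicate 2 or control replicate 2 the count of fallen peroxidases was 0, without control replicate 1 it was 1, without CRF3 it was 10 and without the 6 arrays it was 2. UGT72E2, a glucosyltransferase of monolignols, alone passed among 36 tested UDP-glycosyltransferases, against 1.69% of all tested probe sets. It read 5.70 and 5.24 against 7.72 and 7.80 and fell by 2.29 ± 0.42 (limma adjusted p 0.00917).

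**Figure D3:**
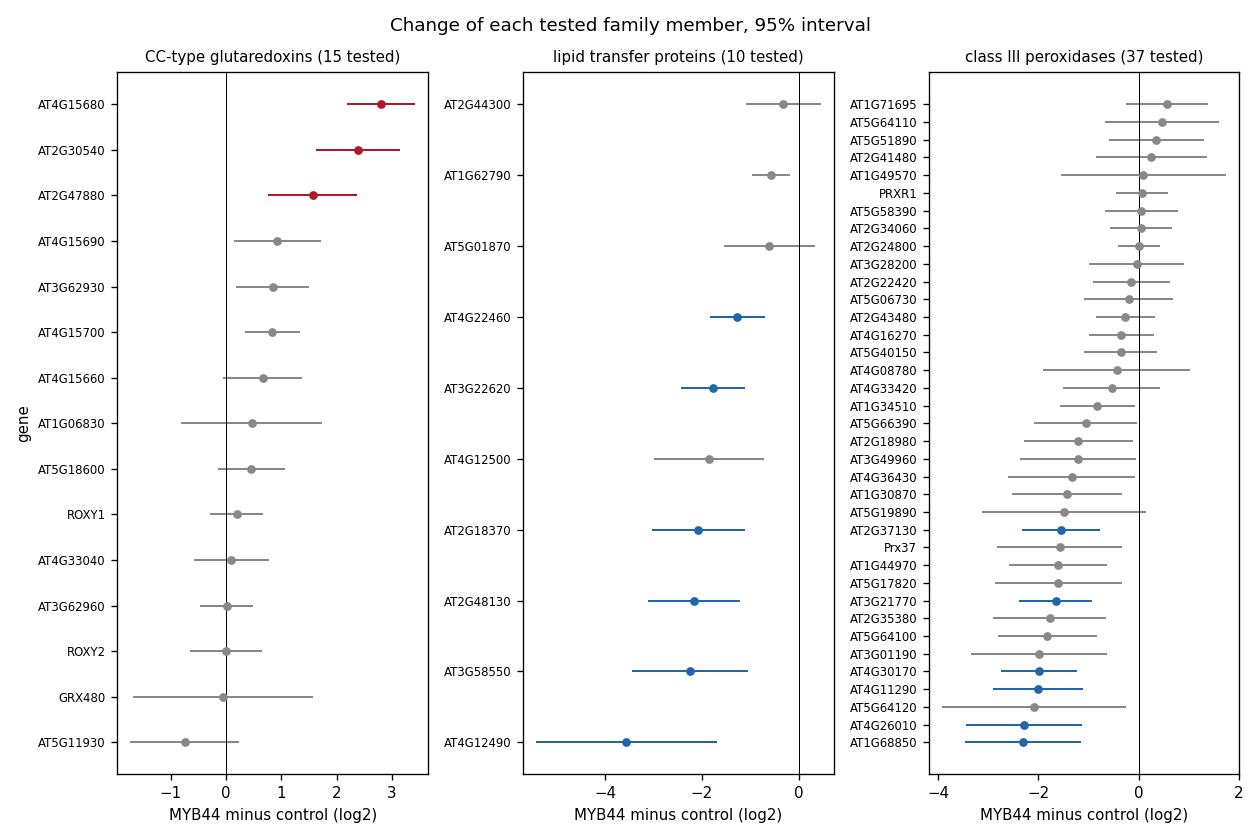
MYB44 minus control (log2) with the 95% interval for each tested member of 3 gene families, coloured where limma's adjusted p was under 0.05. Of the glutaredoxins 3 of 15 rose, and 6 of 10 lipid transfer proteins and 6 of 37 peroxidases fell.

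MYB44 replicate 2 lay below replicate 1 in 29 of the 37 tested peroxidases and 8 of the 10 tested lipid transfer proteins. Over all calls it was the lower array in 81 of 129 fallen and 83 of 140 risen probe sets, beside 7982 of the 15916 tested. The mean peroxidase level was 5.98 and 5.24 in MYB44 and 6.44 and 6.59 in the control, and 3 of the 18 arrays of the 9 lines lay below the higher MYB44 array. The mean lipid transfer level was 6.10 and 5.37 in MYB44 and 7.37 and 7.38 in the control, and 0 of the 18 lay below the higher MYB44 array. In the unchilled WT of the cold experiment the mean lipid transfer level was 7.16 and 7.01. The mean peroxidase level there was 5.96 and 5.81, below MYB44 replicate 1 and above replicate 2. Against that WT 7 peroxidases and 5 lipid transfer proteins fell in limma. Its array medians were higher, and the part of this in these levels was not tested.

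The 3 tested root markers, of 12 listed, were also low in MYB44 replicate 2. Their mean was 7.23 and 6.34 in MYB44 and 7.31 and 7.54 in the control. It was 6.45 to 8.20 in the 18 arrays of the 9 lines. In the unchilled WT of the cold experiment it was 6.92 and 6.66, between the MYB44 arrays. The root hair expansins EXPA18 and EXPA7 differed by -1.07 and -0.64 and PYK10 by -0.20, and 0 of the 3 passed (limma adjusted p 0.221, 0.615 and 0.852, with 1 at an unadjusted p under 0.05). Of 3 tested root hair genes 1 fell, the peroxidase gene AT4G26010 already counted above, against 0.811% of all tested probe sets. This list was added after values were seen and holds both expansins. All 3 genes were below each of the 9 lines, where MYB44 was lowest in 9.47% of all tested probe sets. The single tested gene of the added suberin list was AT2G48130, which fell by 2.16 and is also among the lipid transfer proteins. The part of root or hypocotyl tissue in the falls was not tested, and in whole tissue fewer cells of a type and less RNA per cell cannot be told apart. The 3 leaf markers gave a mean of 11.69 and 12.15 in MYB44 and 11.93 and 12.09 in the control, and 0 of the 3 passed in limma (0 at an unadjusted p under 0.05).

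**Figure D4:**
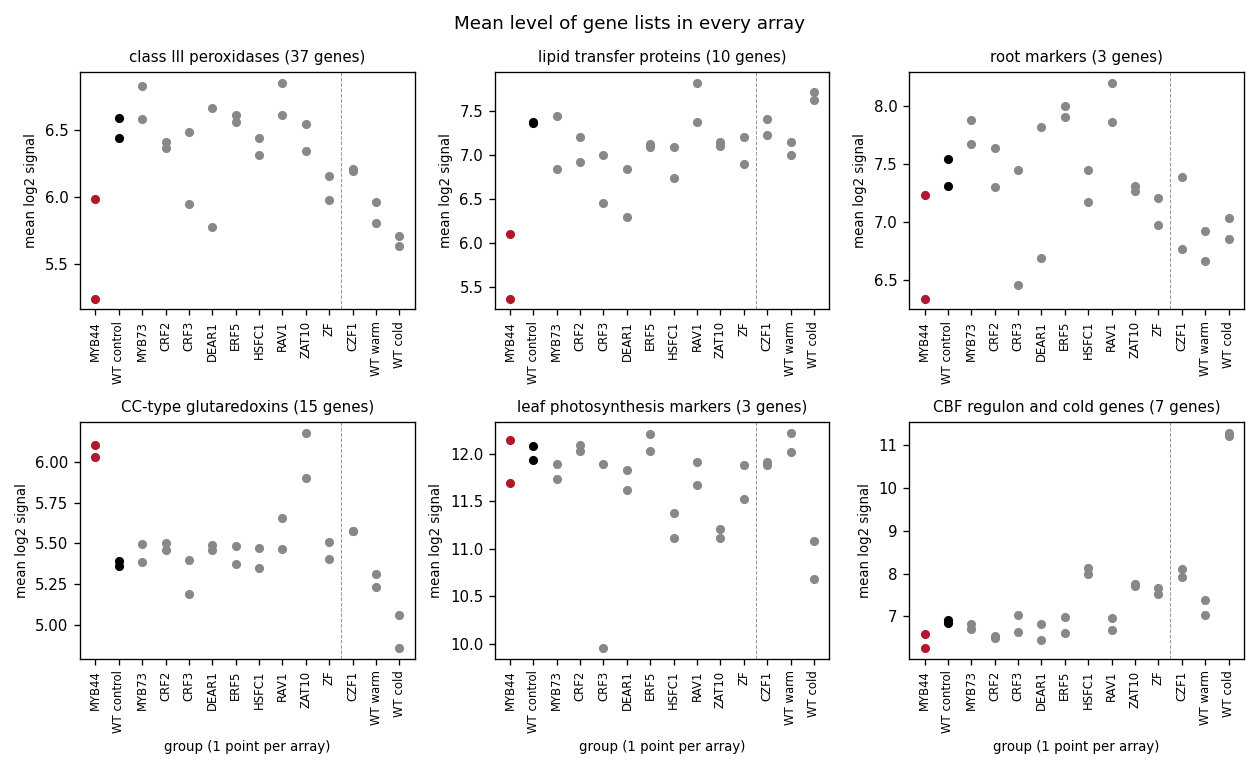
Mean log2 signal of 6 gene lists in each array, 1 point per array, with MYB44 in red, the control WT in black and a dashed line before the groups whose array medians were higher. The MYB44 arrays are lowest for lipid transfer proteins among the lines left of the dashed line, and the lower MYB44 point for root markers (6.34) is replicate 2.

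MYB44 differed in limma from the mean of all 10 other lines in 4.32% of tested probe sets (1.55% higher and 2.78% lower). Against the mean of the 9 lines, without CZF1, the share was 6.03%, with 481 probe sets higher and 478 lower (3.02% and 3%). Lower than those lines were 11 of 37 peroxidases and 7 of 10 lipid transfer proteins, and 4 of 15 glutaredoxins were higher. All these counts rest on the same MYB44 arrays as the comparison with the control, so they give no separate support. The peroxidase and lipid transfer lists were also added after values of those arrays had been seen. Of the 12 largest falls, which were chosen with the same MYB44 arrays, 12 were also lower than the 9 lines and 9 were below each of them. ZF was lower than MYB44 for AT5G14650, and HSFC1 was lower for AT1G26250 and AT3G45710. Of the 12 largest rises, also chosen with the same MYB44 arrays, 9 were higher than the 9 lines. The exceptions were AT2G43590, AT2G39920 and AT1G56300, which stood 0.79, 0.80 and 0.59 above them (limma adjusted p 0.12, 0.138 and 0.192). Across all tested probe sets MYB44 was the highest of the 10 lines in 12.1% and the lowest in 9.47%.

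Against MYB73, of the same subgroup, 1.27% of tested probe sets passed in limma, 94 higher and 108 lower in MYB44 (0.591% and 0.679%). Lower than in MYB73 were 4 of 37 peroxidases and 4 of 10 lipid transfer proteins, counts that rest on the same MYB44 arrays and added lists. AT5G37690 and AT3G45710 differed from MYB73 by -3.30 and -2.45 (limma adjusted p 0.00191 and 0.00122). AT5G14650 differed by -2.81 and did not pass (limma adjusted p 0.133), with an SD of 1.54 between the MYB73 arrays. The count of 202 fell to 41 without MYB44 replicate 2 or MYB73 replicate 2 and to 44 without MYB73 replicate 1, and was 312 without MYB44 replicate 1.

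**Figure D5:**
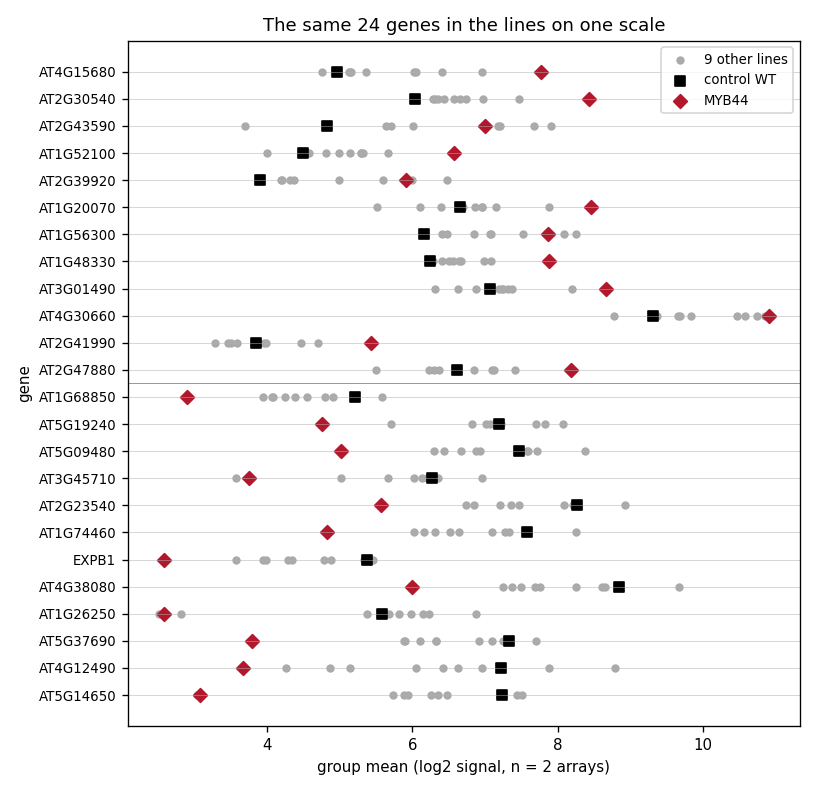
Group means (log2 signal, n = 2 arrays each) of the 12 largest rises (top) and falls (bottom) in MYB44 (red), the control WT (black) and 9 other lines (grey). MYB44 was the highest of the 10 lines for 9 of the 12 rises and the lowest for 9 of the 12 falls, genes chosen with the same MYB44 arrays.

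The overexpressed factors are described as cold-induced in the title of the series. After 24 h at 4 °C 27.2% of tested probe sets changed in WT (14.1% rose and 13.1% fell), in arrays not shared with the MYB44 comparison. The plants at 4 °C also had light of 30 in place of 100 µmol m-2 s-1, so cold and dimmer light cannot be told apart here. Of the 140 probe sets that rose in MYB44, 18.6% rose and 25% fell in the cold, which is 1.16% and 1.67% of the cold lists. Of the 129 that fell in MYB44, 10.9% rose and 17.8% fell in the cold.

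All 7 tested cold-regulated genes rose in the cold. In MYB44 0 of the 7 passed in limma (4 at an unadjusted p under 0.05, 3 lower and 1 higher), with a median difference of -0.83. COR15A, which encodes a chloroplast protein that protects membranes in freezing, read 6.13 and 5.64 in MYB44 and 7.26 and 6.81 in the control. The difference was -1.15, with a 95% interval from -2.09 to -0.20 (limma adjusted p 0.224), against a rise of 5.58 in the cold. COR15B, LTI30 and COR47 differed by -1.28, -0.95 and -0.83 (limma adjusted p 0.195, 0.339 and 0.557), and in each both MYB44 arrays were below both control arrays. The control and the fit moved these values. COR15A and COR15B passed without CRF3 (limma adjusted p 0.021 for each), against all 4 WT arrays (-1.93 and -2.20, limma adjusted p 0.00782 and 0.00438) and with the 22 °C plants of the cold experiment as control (-2.71 and -3.12, limma adjusted p 0.000616 and 0.000265). LTI30 passed without MYB44 replicate 1 (-1.83, limma adjusted p 0.0483) and differed by -0.07 without MYB44 replicate 2. COR47 differed by 0.015 from the WT of the cold experiment. COR27, a cold- and clock-regulated gene, differed by 0.92 the other way (limma adjusted p 0.313). MYBC1, a MYB-related factor whose loss raises freezing tolerance, read 4.29 and 3.93 against 5.44 in both control arrays and fell by 1.33 ± 0.26 (limma adjusted p 0.0135). PIA1, a protein phosphatase 2C gene, fell by 0.94, and EXO, a brassinosteroid-responsive gene, by 1.37.

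Several lists with no member named above gave no call. Of 6 flavonoid and anthocyanin genes 0 passed in limma (0 at an unadjusted p under 0.05), and of 18 cytochrome P450s 0 passed (2 unadjusted). The 66 chloroplast-encoded genes had a median difference of 0.04 and 0 calls in limma (3 at an unadjusted p under 0.05). WT of the cold experiment at 22 °C differed from the control WT in 33.9% of tested probe sets, of which the control was higher in 3.74% of those tested and lower in 30.2%.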

How the data were processed

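Per the labels' protocols, total RNA was isolated with an RNeasy kit, then amplified and biotinylated for single-colour arrays. The authors deposited log2 signals per probe set. Per the submitters' processing notes, GCRMA and limma were used, with neither a version nor a role stated, and how arrays were centred was not stated. The platform annotation pairs 13513 of 22746 probe sets with 1 gene, 503 with several and 8730 with none, and only the first were named. Locus identifiers were matched to the RefSeq gene table, in which 13508 of them were found.

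Probe sets over a log2 value of 4 in at least 2 of the 28 arrays (15916) were fitted with limma 3.58.1 in R 4.3.3 as 14 group means together, with 14 residual degrees of freedom. Benjamini-Hochberg adjustment ran separately for every contrast, and calls needed an adjusted p under 0.05. The number of arrays limits the precision. The fit was tested on simulated data.

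Named genes are the 12 largest rises and falls among probe sets of 1 gene past the threshold whose groups did not overlap, up to 4 members past the threshold and any member's value per list, COR15A, COR47 and 2 unnamed probe sets in each direction. The others are AT4G01460, AT4G14270, AT5G24490, XERICO, CML30, YAB5, PWD, AT5G39790, AT5G19250, PIA1, AT2G43610 and EXO, added after their values were seen. A gene with several probe sets was measured by 1 of them. The members and lists were chosen with earlier results of these data known. Annotation-name lists (expansins, UDP-glycosyltransferases, cytochrome P450s) were corrected after the files were opened. The peroxidase, lipid transfer protein and NPF2 lists were added after values were seen. The alternatives without CZF1 or without the 6 arrays of higher median were chosen after seeing the data.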

Additional observations from a re-analysis of the deposited data

How the results depend on the processing

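The 269 calls of MYB44 against its control became 0 in a fit of the 4 arrays alone, 979 without CRF3, 134 without the 6 arrays of CZF1 and the cold experiment, 3360 with the 22 °C plants of the cold experiment as control (10.6% higher) and 660 against all 4 WT arrays (23.8% higher), beside 52% higher as reported. Leaving out 1 of the 4 arrays gave 33 to 188 calls. Settings without a filter (243), with a filter at a log2 value of 6 (257), with quantile normalization (306) and with a trended, robust prior (277) stayed within 1.5 times. The share of higher calls fell to 44.1% with quantile normalization.

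For the 3 glutaredoxins that rose, the count was 0 in the 4 arrays alone, 6 with the 22 °C plants of the cold experiment as control (where 2 others fell), 7 against all 4 WT arrays (where 1 fell) and 2 to 3 with 1 array left out. The 6 fallen peroxidases became 0 in the 4 arrays alone, 10 without CRF3, 3 without a filter, 2 without the 6 arrays and 0 to 8 with 1 array left out. The 6 fallen lipid transfer proteins became 0, 3 without a filter, 2 without the 6 arrays and 0 to 4 with 1 array left out.

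The comparison with the 10 other lines called 688, 341 among those groups alone, 1597 without CRF3 and 108 to 2380 with 1 array left out (108 without MYB44 replicate 2, 400 without MYB44 replicate 1, 2380 and 1587 without either CRF3 array). The comparison with MYB73 called 202, 0 in its 4 arrays alone, 846 without CRF3, 76 without the 6 arrays and 41 to 312 with 1 array left out. The control against the WT of the cold experiment called 5397, 1647 after quantile normalization (53.6% higher in place of 11%) and 2433 to 3096 with 1 array left out. The cold response called 4329, and 2717 to 2858 with 1 array left out.

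Of 55 named probe sets past the threshold, 11 kept their call whichever of the 4 arrays was left out, and 35 kept it without a filter. Against the WT of the cold experiment, AT2G43610 became 0.41, AT2G37130 0.045, AT4G22460 0.105, COR47 (AT1G20440) 0.015, PWD (AT5G26570) -0.035, YAB5 (AT2G26580) -0.07, AT5G39790 -0.51, AT2G39920 -0.21 and AT2G43590 -0.24, which reversed their direction. The array medians of that WT, with the cold arrays and CZF1, were 5.765 to 5.84, against 5.46 and 5.39 in MYB44. The part of this scale difference in the changes of sign was not tested. The cause of the other changes was not tested.

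Replicate numbers did not pair the arrays, since the deviations of MYB44 and control correlated at -0.0539 and those of MYB44 and the other lines at -0.352 to 0.158. With the replicate number as a block, 244 probe sets were called (122 higher and 122 lower), 4 lipid transfer proteins fell, and the comparison with MYB73 called 165. With 2 arrays per group and signals near the floor of 2.13, small changes of dim genes were not detectable.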
